A study of Mus musculus with 6 samples.

Results

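The genes described here encode the extracellular matrix of skin and skin tumours: collagen chains, laminin chains, matrix glycoproteins, proteoglycans, enzymes that crosslink collagen, and the PDGF receptors of stromal cells. A list of 41 genes was taken, and for each gene the probe set with the highest mean over all 6 arrays was used among those whose annotation gives exactly 1 gene symbol. By that rule 38 of the 41 genes were measured, of 18193 genes in all. The probe sets for Loxl2 carry several symbols and were not used, and Spp1 and Fbn1 were not analysed here.

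Expression was measured on Affymetrix 3' arrays, 1 array per mouse, in cells from digested skin tumours. The tumours came from 3 wild-type mice (WT) and from 3 mice that lack E-FABP (EKO). Fabp5 encodes E-FABP, which carries fatty acids in the epidermis. The protocol for all 6 mice was DMBA/TPA over 5 months, in which DMBA is the initiating carcinogen and TPA the tumour promoter, so no untreated skin was compared. The sample labels call the cells keratinocytes and the design text calls them tumour cells, the labels name no cell sort, and neither strain, age nor the cell types that lack E-FABP are given in the sources used here. Values are log2 RMA values, and a difference is always EKO minus WT on that scale, tested with limma and with Benjamini-Hochberg adjustment over all 18193 genes at a threshold of 0.05.

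Fibrillar collagens assemble into the fibres that give dermis and tumour stroma their tensile strength, and types V and XI join these fibres in small amounts and set where fibrils start and how thick they become. The basement membrane under keratinocytes is a sheet of type IV collagen and laminin, anchored to the epidermis by type XVII collagen and the laminin of hemidesmosomes and to the dermis by type VII collagen. Small leucine-rich proteoglycans such as decorin, lumican and fibromodulin coat collagen fibrils and limit their lateral growth. In skin the fibrillar chains and these proteoglycans are made mainly by fibroblasts, whereas keratinocytes make type VII and XVII collagen and the laminin chains Lama3 and Lamb3.

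The 6 arrays had medians of 5.41 to 5.43 and correlated pairwise across named probe sets with r between 0.986 and 0.994. Fabp5 matched the labels, with log2 values of 14.80 to 14.94 in WT and 7.98 to 8.30 in EKO tumours, and was the 1 gene of all tested that passed the threshold. Keratinocyte markers were present in every array, their mean log2 level over 11 measured genes lying between 12.98 and 13.24. The labelled keratinocytes were not free of stromal RNA, since Col1a2 and Col3a1, which fibroblasts make, read 13.01 to 14.06 over the 6 arrays. In such bulk samples fewer cells of a type and less RNA per cell cannot be told apart.

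The promoters of 27 of the 38 measured genes are in the RefSeq promoter table (build GRCm38.p6), as windows from 250 bases before to 50 bases after an annotated start. Col4a1 and Col4a2, the chains that make the common type IV collagen, are shown first because they lie head to head on chromosome 8 and their windows share 78 bases, with annotated starts 21 bases apart. Capitals mark the shared stretch, which is read on opposite strands in the pair.
Col4a1, chr8:11312777-11313076 (minus strand): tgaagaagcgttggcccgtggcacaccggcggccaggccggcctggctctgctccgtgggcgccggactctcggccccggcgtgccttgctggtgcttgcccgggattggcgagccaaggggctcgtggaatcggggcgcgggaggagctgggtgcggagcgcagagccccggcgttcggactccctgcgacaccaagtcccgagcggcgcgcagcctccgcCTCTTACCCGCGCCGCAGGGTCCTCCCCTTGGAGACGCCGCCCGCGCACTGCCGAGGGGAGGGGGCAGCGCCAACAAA
Col4a2, chr8:11312555-11312854 (plus strand): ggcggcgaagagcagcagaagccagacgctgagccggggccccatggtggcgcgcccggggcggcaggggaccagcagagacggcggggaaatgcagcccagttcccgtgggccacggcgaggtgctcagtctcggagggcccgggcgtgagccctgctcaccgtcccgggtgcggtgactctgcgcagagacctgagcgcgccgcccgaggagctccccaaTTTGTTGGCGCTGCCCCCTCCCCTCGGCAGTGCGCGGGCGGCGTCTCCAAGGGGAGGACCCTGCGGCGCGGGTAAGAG

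The next windows belong to Col11a1 and Col5a3, fibrillar chains whose values did not overlap between the groups, to Col1a2, an abundant fibrillar chain whose values did, and to Fmod, whose values did not overlap in the opposite direction. Capitals mark CCAAT (the box bound by NF-Y) and GGGCGG (the GC box bound by Sp1 family factors) on either strand.
Col11a1, chr3:114030290-114030589 (plus strand): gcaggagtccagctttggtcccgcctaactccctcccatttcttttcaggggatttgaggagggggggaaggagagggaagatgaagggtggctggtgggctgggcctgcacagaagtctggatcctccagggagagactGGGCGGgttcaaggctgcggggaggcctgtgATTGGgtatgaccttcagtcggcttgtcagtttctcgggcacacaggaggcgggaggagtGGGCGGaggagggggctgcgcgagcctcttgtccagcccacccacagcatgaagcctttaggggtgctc
Col5a3, chr9:20815018-20815317 (minus strand): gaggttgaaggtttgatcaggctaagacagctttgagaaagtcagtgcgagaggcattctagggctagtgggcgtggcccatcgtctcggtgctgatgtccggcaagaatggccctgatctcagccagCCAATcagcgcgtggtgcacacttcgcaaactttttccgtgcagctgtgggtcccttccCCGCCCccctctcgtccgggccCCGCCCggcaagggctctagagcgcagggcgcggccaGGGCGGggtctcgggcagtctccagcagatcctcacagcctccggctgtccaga
Col1a2, chr6:4505368-4505667 (plus strand): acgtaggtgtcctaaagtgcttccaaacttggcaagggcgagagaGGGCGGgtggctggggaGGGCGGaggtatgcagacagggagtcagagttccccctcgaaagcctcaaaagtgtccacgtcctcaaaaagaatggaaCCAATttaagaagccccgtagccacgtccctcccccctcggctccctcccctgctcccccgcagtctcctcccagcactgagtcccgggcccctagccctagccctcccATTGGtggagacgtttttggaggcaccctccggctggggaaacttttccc
Fmod, chr1:134037004-134037303 (plus strand): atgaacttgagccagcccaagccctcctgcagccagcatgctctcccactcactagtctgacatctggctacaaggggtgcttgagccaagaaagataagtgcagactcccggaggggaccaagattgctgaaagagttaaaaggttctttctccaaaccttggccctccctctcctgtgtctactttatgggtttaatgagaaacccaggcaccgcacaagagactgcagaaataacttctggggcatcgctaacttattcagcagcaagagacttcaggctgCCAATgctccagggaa
Each of these 4 windows holds CCAAT or its reverse complement, 2 times in Col1a2 and 1 time in each of the others. The GC box is found 2 times in Col11a1, 3 times in Col5a3, 2 times in Col1a2 and 0 times in Fmod. Over all 33 windows of the measured genes, CCAAT was present on either strand in 39.4%, against 37.4% of all 32851 windows of the same length, and GGGCGG in 57.6% against 35.7%. TATAAA, the TATA box, was present on either strand in 15.2% against 13.6%, and TGAGTCA, the AP-1 element through which TPA acts on many genes, in 3.03% against 5.2%. Matches to CCAAT and GGGCGG can share letters, since the reverse complement of the first ends in GG, and all matches describe letters and not bound sites.

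The collagen chains among the 38 genes had mostly higher means in EKO tumours, but none of the 38 passed the threshold with all 6 arrays. By their means 29 of the 38 genes were higher in EKO and 9 lower, with a median difference of 0.15, where 50% of all genes were higher and their median was 0.00. Of the 21 collagen chains among them 19 were higher, with a median of 0.44. The 21 measured collagens outside the list had 12 higher and 9 lower means and a median of 0.02. Their mean log2 level was 4.95 to 4.99 over the arrays, below the array medians. The 3 EKO values lay above the 3 WT values for 7 of the 38 genes, all of them collagens. This is 18.4% against 5.78% of all genes (12% of all genes did not overlap in either direction). They lay below for 1 gene, Fmod, which is 2.63% against 6.19% of all genes. At an unadjusted limma p under 0.05, 8 of the 38 were higher and 2 lower, against 3.44% and 3.7% of all genes (7.13% in either direction). Adjusted over all genes 0 passed, where 0.0055% of all genes did (smallest limma adjusted p = 0.523, for Col11a1).

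**Figure D1:**
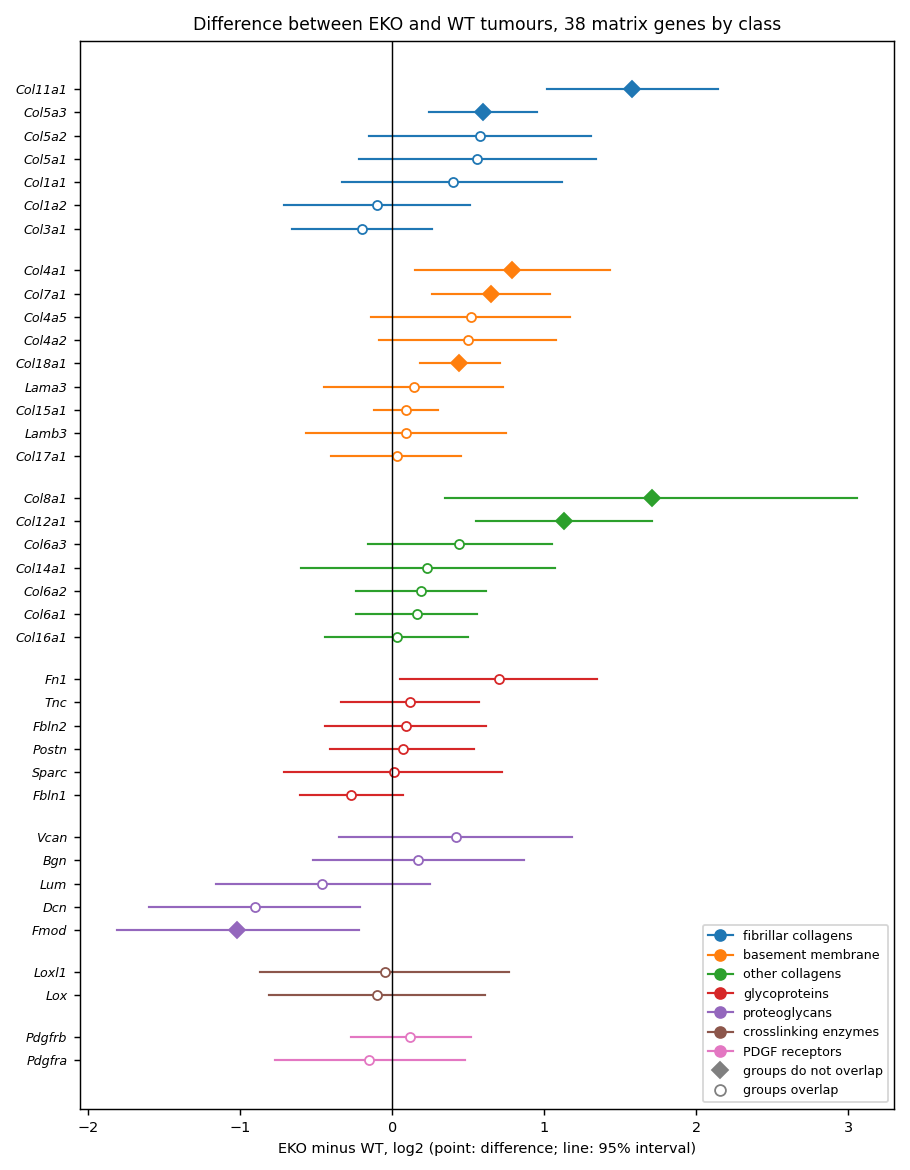
Difference between EKO and WT tumours in log2 units (x axis) for each of the 38 measured matrix genes (y axis), grouped by class in colour, with lines for the 95% interval of the limma fit. Filled diamonds mark the 8 genes whose 3 EKO and 3 WT values do not overlap, 7 collagens to the right of 0 and Fmod to the left.

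The 7 fibrillar chains had a median difference of 0.56, and 5 of them were higher in EKO tumours by their means. Col11a1 and Col5a3 did not overlap between the groups, and Col5a1, Col5a2, Col1a1, Col1a2 and Col3a1 did. Col11a1, the alpha 1 chain of type XI collagen, which nucleates fibrils and is known from cartilage and from the stroma of carcinomas, read 4.92, 5.41 and 5.75 in WT and 7.28, 6.66 and 6.89 in EKO replicates 1, 2 and 3. Every EKO value lay above every WT value, and EKO replicate 1 was highest. The means were 5.36 ± 0.417 and 6.94 ± 0.312 (SD, n = 3 each), a difference of 1.58 (SE 0.238, 95% interval 1.02 to 2.14), or 3.0-fold, against a WT mean below the array medians and with no detection calls to place it above background (limma adjusted p = 0.523, and 0.0914 to 0.998 over 13 alternative settings). The second Col11a1 probe set also separated the groups, with a difference of 2.03.

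Col5a3, the alpha 3 chain of type V collagen, read 6.37, 6.31 and 6.11 in WT and 7.08, 6.55 and 6.95 in EKO replicates 1, 2 and 3. All EKO values were higher than all WT values, EKO replicate 2 lying nearest to them, and the difference was 0.60 (SE 0.152, limma adjusted p = 0.621). A second, dim Col5a3 probe set had a difference of -0.11. Col5a2 read 10.73, 10.48 and 10.93 in WT and 11.87, 10.58 and 11.43 in EKO replicates 1, 2 and 3. EKO replicates 1 and 3 exceeded all WT values and EKO replicate 2 lay within their range, with a difference of 0.58 (SE 0.31, limma adjusted p = 0.756), which was 0.29 without EKO replicate 1 and 0.93 without EKO replicate 2. Its second probe set did not overlap between the groups (difference 0.90). For Col5a1 EKO replicates 1 and 3 were also above WT, while EKO replicate 2 was the lowest of all arrays, with a difference of 0.56 (95% interval -0.22 to 1.34), which was 0.23 without EKO replicate 1 and 0.95 without EKO replicate 2.

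Type I and III collagen form the bulk of dermal fibres. Col1a1 read 10.58, 10.42 and 11.33 in WT and 11.69, 10.72 and 11.11 in EKO replicates 1, 2 and 3, and Col1a2 read 13.54, 13.13 and 14.06 in WT and 13.83, 13.16 and 13.44 in EKO. The groups overlapped for both chains. The differences were 0.40 for Col1a1 (95% interval -0.33 to 1.12), -0.10 for Col1a2 (-0.71 to 0.51) and -0.20 for Col3a1 (-0.66 to 0.26). Differences of either sign within these intervals are not excluded. The second Col1a1 probe set had a difference of 0.06. The other probe sets of Col1a2 and Col3a1 went both ways, the remaining Col3a1 probe set having a difference of 0.32.

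**Figure D2:**
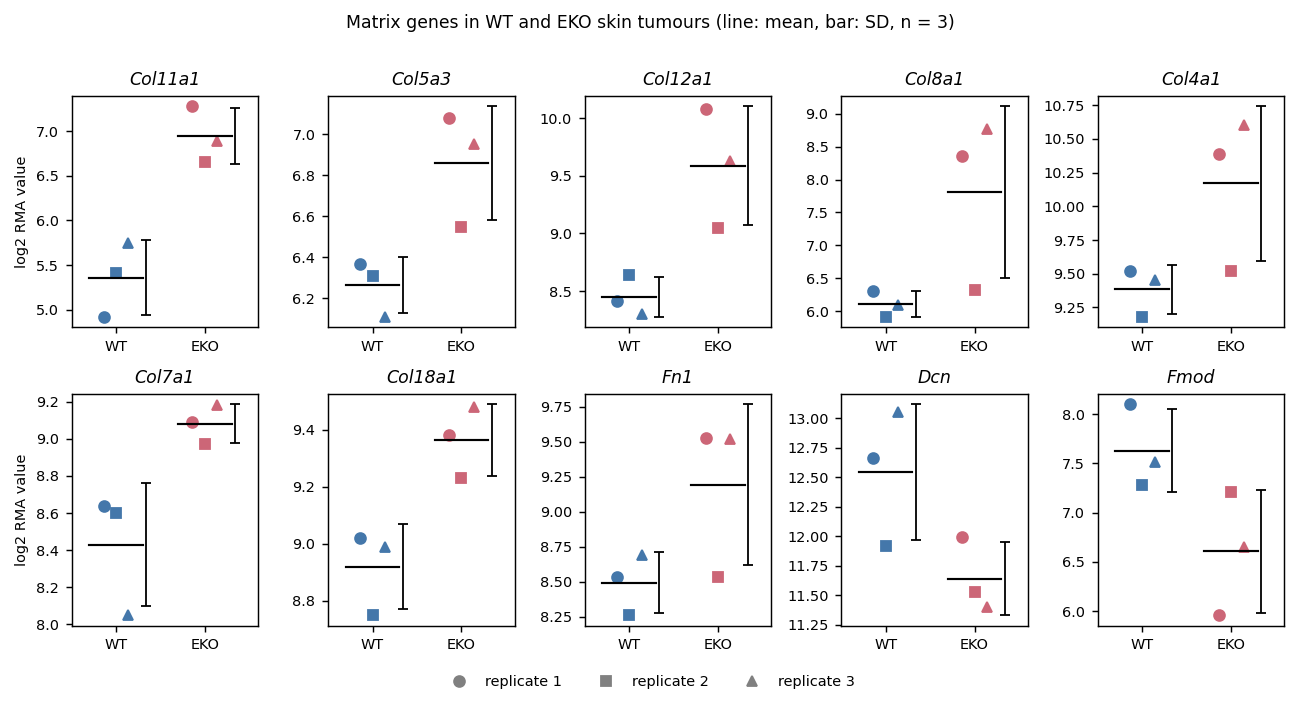
Log2 RMA value (y axis, own range in each panel) of 10 matrix genes in WT and EKO tumours, each symbol 1 array, with the mean as a line and the SD as a bar (n = 3). Col11a1, Col5a3, Col12a1, Col8a1, Col4a1, Col7a1 and Col18a1 are higher in every EKO array, Fmod is lower in every EKO array, and for Fn1 and Dcn 1 array of a group reaches the other group's range.

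All 9 genes of the basement membrane zone had higher means in EKO tumours, with a median difference of 0.44. For 3 of them the groups did not overlap (33.3%, against 5.78% of all genes as higher). Col18a1, a basement membrane collagen whose end fragment is endostatin, read 9.02, 8.75 and 8.99 in WT and 9.38, 9.23 and 9.48 in EKO replicates 1, 2 and 3. All 3 EKO values were higher, over a narrow range, with a difference of 0.44 (SE 0.111, limma adjusted p = 0.621), and a second probe set gave 0.40 without overlap. Col7a1, the anchoring fibril collagen, read 8.64, 8.60 and 8.05 in WT and 9.09, 8.97 and 9.18 in EKO replicates 1, 2 and 3. WT replicate 3 was lowest and the EKO values lay close together, with a difference of 0.65 (SE 0.167, limma adjusted p = 0.621).

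Col4a1 read 9.52, 9.18 and 9.45 in WT and 10.39, 9.52 and 10.60 in EKO replicates 1, 2 and 3. EKO replicates 1 and 3 stood well above WT, and EKO replicate 2 equalled the highest WT array to 2 decimals (difference 0.79, 95% interval 0.15 to 1.43, limma adjusted p = 0.638). The second Col4a1 probe set overlapped between the groups, with a difference of 0.33. Col4a2, the head-to-head partner of Col4a1, read 8.38, 7.98 and 8.45 in WT and 8.94, 8.22 and 9.14 in EKO. The arrays of the EKO group stood in the same order as for Col4a1, and the Col4a2 difference was 0.50 (-0.09 to 1.08). Col4a5, on the X chromosome beside Col4a6, had a difference of 0.52 with a different order, EKO replicate 2 being highest. Col4a6 itself had one of -0.03.

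The remaining genes of the zone are markers of the keratinocyte side or of vessels and had small differences. Col17a1, the hemidesmosomal collagen, had a difference of 0.03 (-0.40 to 0.45), and Lama3 and Lamb3, chains of the laminin of hemidesmosomes, had differences of 0.14 (-0.45 to 0.73) and 0.09 (-0.57 to 0.75). EKO replicate 3 was the highest array for all 3 genes and EKO replicate 1 the lowest EKO array. Col15a1 varied least of all measured members, from 6.42 to 6.68 over the 6 arrays, with a difference of 0.09 (-0.12 to 0.30).

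Among the other collagens, Col12a1 and Col8a1 had the largest differences of the class, and the type VI chains had small ones. All 7 chains had higher EKO means, with a median of 0.23. Col12a1, a fibril-associated collagen that links fibrils to the surrounding matrix, read 8.41, 8.64 and 8.30 in WT and 10.08, 9.05 and 9.63 in EKO replicates 1, 2 and 3. Each EKO tumour lay above each WT tumour, EKO replicate 2 least (difference 1.13, SE 0.247, 95% interval 0.55 to 1.71, 2.19-fold, limma adjusted p = 0.549). A second probe set of middle brightness gave 0.48, and the mean over its 4 probe sets, of which the other two were dim, gave 0.38.

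Col8a1, a short-chain collagen made by vessel wall and activated mesenchymal cells, read 6.31, 5.92 and 6.10 in WT and 8.35, 6.33 and 8.76 in EKO replicates 1, 2 and 3. EKO replicate 2 lay only just above the highest WT value, which gave an SD of 1.3 among EKO and 0.196 among WT tumours, and the difference was 1.71 (SE 0.574, limma adjusted p = 0.63). The other Col8a1 probe sets overlapped between the groups, with differences of 1.01 and 0.23, and the mean over its 3 probe sets gave 0.98. Without EKO replicate 2 the difference was 2.45 (limma adjusted p = 0.00997, and up to 0.998 under other alternatives), and Col8a1 was then the 1 of the 38 genes past the threshold, where 0.231% of all genes passed (0.209% as higher). Col6a3 read 10.51, 10.11 and 10.02 in WT and 11.09, 10.11 and 10.77 in EKO replicates 1, 2 and 3, EKO replicates 1 and 3 exceeding WT, with a difference of 0.44 (-0.16 to 1.05). Its partners in type VI collagen, the adjacent genes Col6a1 and Col6a2, had differences of 0.16 and 0.19. Col14a1 (0.23) was high in EKO replicate 1 only, at 7.22 against 5.87 to 6.26 in the other arrays, and Col16a1 had a difference of 0.03.

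**Figure D3:**
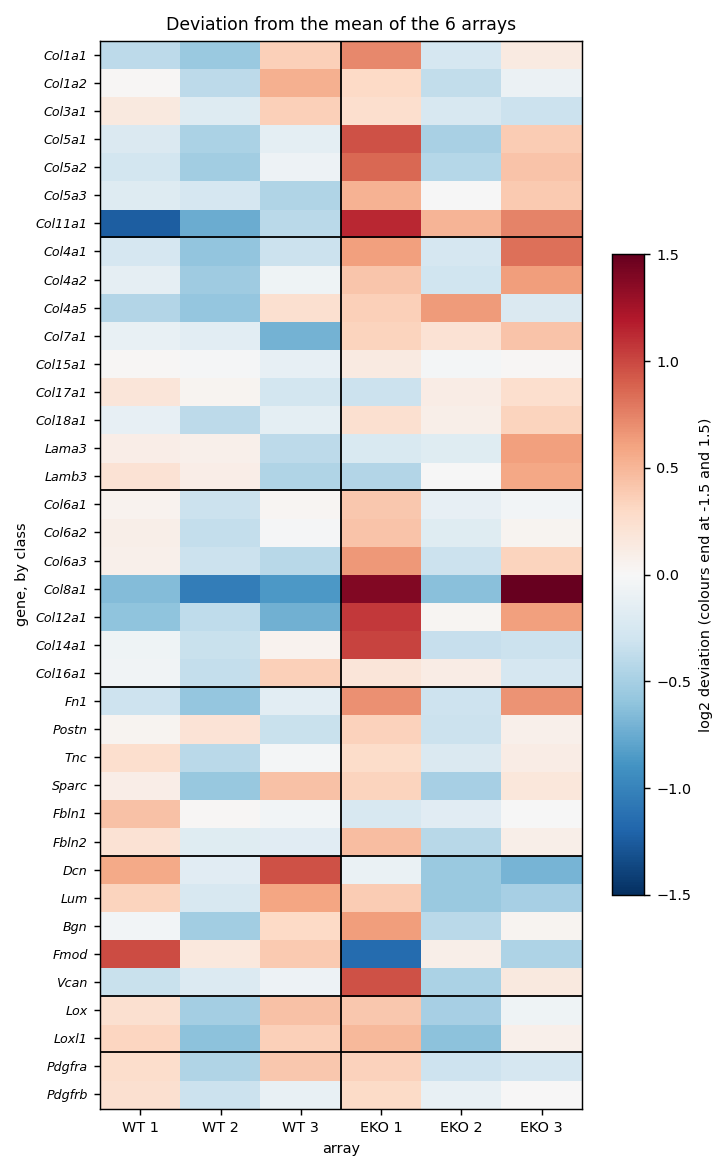
Deviation of each of the 38 genes (rows, grouped by class) from its own mean over the 6 arrays (columns), in log2 units, red above and blue below, with colours ending at -1.5 and 1.5. EKO replicate 1 is the highest array for 19 genes and WT replicate 2 the lowest for 19, and EKO replicate 2 is the lowest EKO array for 29.

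The 6 measured matrix glycoproteins had a median difference of 0.08, with 5 higher and 1 lower by their means, and 0 were without overlap. Fn1, which encodes fibronectin, the adhesive protein on which collagen fibrils are laid down, read 8.53, 8.26 and 8.69 in WT and 9.53, 8.53 and 9.52 in EKO replicates 1, 2 and 3. EKO replicates 1 and 3 lay above WT and EKO replicate 2 within its range, with a difference of 0.70 (SE 0.275, 95% interval 0.05 to 1.35, limma adjusted p = 0.673). Fbln1, a fibulin of elastic fibres and basement membranes, read 8.37, 7.95 and 7.89 in WT and 7.70, 7.77 and 7.93 in EKO replicates 1, 2 and 3. These ranges overlapped, with a difference of -0.27 (-0.61 to 0.07), and all 3 Fbln1 probe sets had lower EKO means.

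Tnc, Postn, Sparc and Fbln2 did not separate the groups. Tnc, which encodes tenascin C, read 9.12, 8.46 and 8.83 in WT and 9.14, 8.65 and 8.98 in EKO replicates 1, 2 and 3 (difference 0.12, -0.34 to 0.57). Postn, which encodes periostin, had a difference of 0.07 (-0.41 to 0.54), Sparc, a collagen-binding protein, 0.01 (-0.71 to 0.72), and Fbln2 0.09 (-0.44 to 0.62). WT replicate 2 and EKO replicate 2 were the lowest arrays of their groups for Tnc, Sparc and Fbln2.

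The 5 proteoglycans had a median difference of -0.46, with Fmod, Dcn and Lum lower and Bgn and Vcan higher in EKO tumours by their means. Fmod, which encodes fibromodulin, read 8.10, 7.28 and 7.51 in WT and 5.96, 7.21 and 6.65 in EKO replicates 1, 2 and 3. All EKO values were below all WT values, EKO replicate 2 by a small margin, with a difference of -1.02 (SE 0.337, 95% interval -1.81 to -0.22, limma adjusted p = 0.625). All 6 Fmod probe sets had lower EKO means, between -0.44 and -1.02, and 5 of them were without overlap. The same 5 are of a kind that can bind related transcripts (suffix x_at). The remaining Fmod probe set, without that suffix, overlapped between the groups (difference -0.49).

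Dcn, which encodes decorin, read 12.66, 11.92 and 13.05 in WT and 11.99, 11.53 and 11.40 in EKO replicates 1, 2 and 3. EKO replicate 1 was the only EKO array above the lowest WT array, and the difference was -0.90 (SE 0.294, 95% interval -1.60 to -0.21, limma adjusted p = 0.625), a level 1.87-fold higher in WT. Lum, which encodes lumican, read 11.55, 10.98 and 11.81 in WT and 11.60, 10.66 and 10.72 in EKO replicates 1, 2 and 3, where EKO replicate 1 lay within the WT range and the other EKO arrays below it (difference -0.46, -1.16 to 0.25). Bgn, which encodes biglycan, close to decorin in sequence, had a difference of 0.17 (-0.52 to 0.87). Vcan, the large hyaluronan-binding versican, had one of 0.42 (-0.35 to 1.18), high in EKO replicate 1 at 7.98 against 6.55 to 7.17 in the other arrays.

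Position in the genome was not used to choose the genes, and several of the proteoglycans are neighbours in the RefSeq gene table (GRCm38.p6). Fmod lies next to Prelp, another small leucine-rich proteoglycan, which had a difference of -0.96 (limma adjusted p = 0.621) and no overlap between the groups. Dcn and Lum stand in a run with Kera and Epyc. In that run Kera, which encodes keratocan, had a difference of -0.70, and Epyc had one of 0.00. Col3a1 and Col5a2 are also adjacent and had differences of opposite sign, -0.20 and 0.58.

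Lysyl oxidases crosslink collagen and elastin. Lox read 8.20, 7.45 and 8.40 in WT and 8.37, 7.47 and 7.90 in EKO replicates 1, 2 and 3, and Loxl1 read 7.44, 6.50 and 7.48 in WT and 7.60, 6.50 and 7.19 in EKO. The groups overlapped almost fully, replicate 2 being lowest in both, and the differences were -0.10 (-0.81 to 0.61) and -0.05 (-0.87 to 0.77).

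The PDGF receptors mark fibroblasts (Pdgfra) and pericytes (Pdgfrb). Pdgfra read 8.38, 7.67 and 8.53 in WT and 8.46, 7.81 and 7.87 in EKO replicates 1, 2 and 3, and Pdgfrb read 9.20, 8.64 and 8.85 in WT and 9.24, 8.85 and 8.97 in EKO. Both overlapped between the groups, with differences of -0.15 (-0.77 to 0.48) and 0.12 (-0.27 to 0.52). Their ligands Pdgfa, Pdgfb, Pdgfc and Pdgfd and the related Pdgfrl had a median difference of 0.05, from -0.24 for Pdgfrl to 0.24 for Pdgfd.

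The arrays within a group differed in the same order for many of these genes. WT replicate 2 was the lowest WT array for 26 of the 38 genes and EKO replicate 2 the lowest EKO array for 29, while EKO replicate 1 was the highest EKO array for 27. For the fibrillar class the mean deviation from the 6-array mean was -0.31, -0.45 and 0.02 in WT and 0.68, -0.18 and 0.24 in EKO replicates 1, 2 and 3. For the basement membrane class it was -0.06, -0.23 and -0.25 in WT and 0.12, 0.03 and 0.38 in EKO. That class was the only 1 of the 7 in which the mean deviations of the 2 groups did not overlap. Of the lists outside the classes some were also without overlap on this measure, and others, such as the fibroblast markers, overlapped. The 19 basement membrane partners lay at -0.03, -0.11 and -0.02 in WT and 0.04, 0.02 and 0.11 in EKO. Macrophage markers lay at 0.42, -0.04 and 0.38 in WT and -0.14, -0.53 and -0.08 in EKO.

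Markers of the cell types that make or accompany stroma were read beside these classes. The 16 fibroblast markers outside the matrix genes had 1 higher and 15 lower means in EKO tumours and a median difference of -0.23, with 0 genes free of overlap. Their mean log2 level was 7.18 to 7.71 in WT and 7.16 to 7.52 in EKO tumours, and S100a4 (-0.29), Clec3b (-0.50) and Prrx1 (-0.39) had the smallest p. By array their mean deviation was 0.29, -0.24 and 0.29 in WT and 0.10, -0.26 and -0.18 in EKO replicates 1, 2 and 3, and their part in the matrix values was not tested. The 12 smooth muscle and pericyte markers had a median of -0.02, with mean levels of 7.28 to 7.79 in WT and 7.33 to 7.57 in EKO. Myh11 (-0.79), Mcam (0.60) and Kcnj8 (-0.24) led that list.

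Of the 12 endothelial markers 4 were higher and 8 lower (median -0.08, mean levels 6.86 to 7.46 and 6.94 to 7.10), led by Cldn5 (-0.68), Kdr (0.42) and Tek (-0.35). All 11 macrophage markers had lower EKO means (median -0.57, mean levels 7.88 to 8.35 in WT and 7.39 to 7.84 in EKO), and 5 of them, with Mrc1 (-1.04), C1qc (-0.65) and C1qa (-0.59) among them, were without overlap (45.5% of the list against 6.19% of all genes). The 10 markers of cartilage and bone, tissues in which Col11a1 is also made, had mean levels of 4.30 to 4.35 in WT and 4.22 to 4.28 in EKO and a median difference of -0.08 (Ibsp -0.19, Comp -0.26, Sp7 -0.16). The part of the macrophage and endothelial differences in the matrix differences was not tested.

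**Figure D4:**
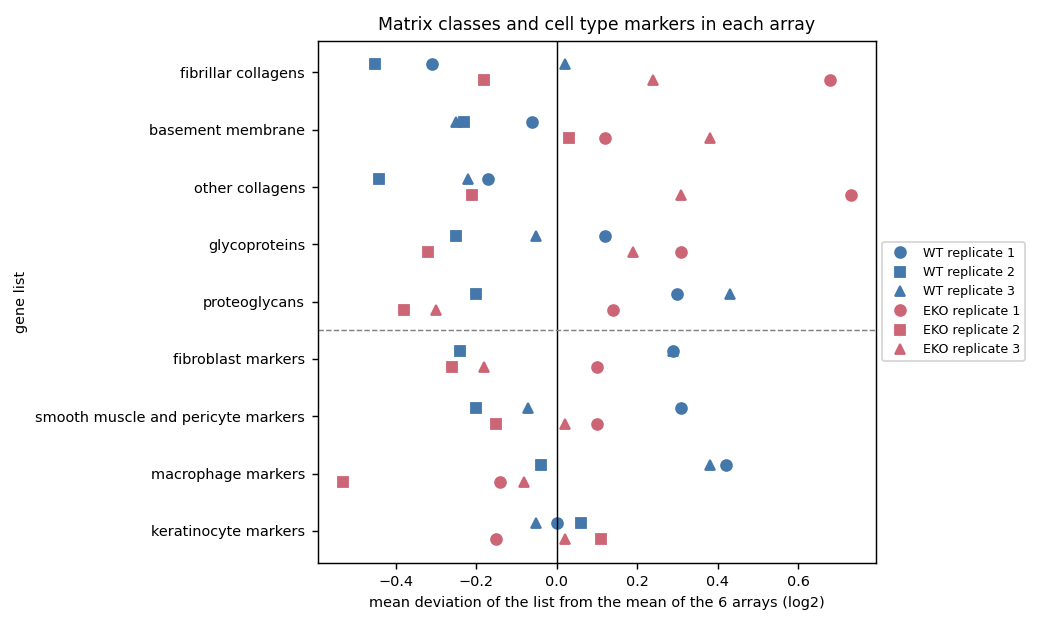
Mean deviation of a gene list from its mean over the 6 arrays (x axis, log2) for 5 matrix classes and 4 lists of cell type markers (y axis), WT arrays in blue and EKO arrays in red. EKO replicates 1 and 3 lie to the right for fibrillar and other collagens, whereas the fibroblast markers of all 3 EKO arrays lie between -0.26 and 0.10, within the WT range of -0.24 to 0.29 except for EKO replicate 2.

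Markers of other tissues in the digests also varied between arrays. The 12 skeletal muscle markers had lower EKO means (median -1.04), but their mean level ran from 6.20 to 9.47 within WT and from 6.32 to 7.46 in EKO tumours, WT replicate 1 being highest (Myoz1 -0.71, Mylpf -1.16, Mb -1.36). The 13 hair follicle genes had a median of 0.79, with levels of 8.93 to 11.85 in WT and 10.48 to 11.34 in EKO (Foxn1 0.76, Krt28 1.33, Krt33a 0.94), and the 9 adipocyte markers one of -0.27, with levels of 6.91 to 7.99 and 7.01 to 7.51 (Cidea -0.67, Pnpla2 -0.26, Adipoq -0.84). The 7 Schwann cell markers had a median of -0.03 and levels of 7.25 to 7.44 and 7.15 to 7.21 (Pmp22 -0.54, Cdh19 -0.58, Ngfr 0.38). Keratinocyte markers had a median of 0.01 (Krt15 -0.32, Krt10 0.14, Trp63 0.08). The part of these tissues in the matrix values was not tested.

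Genes that build, process and bind the matrix, taken from lists outside the 41, had 0 members past the threshold in either direction. Of 140 such genes 71 were higher and 69 lower by their means, with a median difference of 0.00. Without overlap 12 were higher and 11 lower, which is 8.57% and 7.86% against 5.78% and 6.19% of all genes. The 20 further proteoglycan genes had 4 higher and 16 lower means and a median of -0.09. Aspn, which encodes asporin, read 8.56, 8.24 and 8.32 in WT and 7.88, 7.29 and 7.25 in EKO replicates 1, 2 and 3, without overlap (difference -0.90, SE 0.184, limma adjusted p = 0.546), and Ecm2 (-0.43) and the hyaluronan synthase Has2 (-0.57) were lower too by their means. The Ecm2 means, 3.36 in WT and 2.94 in EKO tumours, lay below the lower quartile of every array (3.9 to 3.97), with no detection calls to place them above background.

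The 34 genes of microfibrils, elastic fibres and matricellular proteins had 17 higher and 17 lower means. Eln, which encodes elastin, had the smallest p of all the lists outside the members, with 7.38, 7.48 and 7.23 in WT and 6.73, 6.85 and 6.6 in EKO replicates 1, 2 and 3. The elastin groups did not overlap (difference -0.64, SE 0.106, limma adjusted p = 0.523). The microfibril gene Mfap4 had a difference of -0.74 without overlap. Ccn2, also known as connective tissue growth factor, had one of 0.87 without overlap, and Ccn4 one of 0.78 with overlap between the groups. With all 6 arrays the limma adjusted p of Ccn4 was 0.655. Without EKO replicate 2 Ccn4 passed (1.14, limma adjusted p = 0.0253, and up to 0.998 under other alternatives), where 0.231% of all genes passed.

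Enzymes of collagen maturation had 11 higher and 15 lower means. Plod2, the lysyl hydroxylase of collagen telopeptides, had the largest difference of that list in size, with 6.12, 6.12 and 6.94 in WT and 8.16, 6.94 and 7.57 in EKO replicates 1, 2 and 3. The EKO values were higher, EKO replicate 2 matching WT replicate 3 to 2 decimals (difference 1.16, SE 0.344, limma adjusted p = 0.621). Bmp1, the procollagen C-proteinase, had a difference of 0.30, Loxl3 one of 0.41 and Loxl4 one of -0.39.

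The 19 basement membrane partners had 14 higher means and a median of 0.12, led by the nephronectin gene Npnt (-0.55), the laminin chains Lama2 (-0.49) and Lamc1 (0.44) and the plakin Plec (0.25). The 21 collagens outside the members had a median of 0.02, and Col11a2, the alpha 2 chain of type XI collagen, had a difference of 0.32, with group means of 3.83 and 4.15 and no overlap. Both Col11a2 means lay below the array medians, with no detection calls to place them above background. Col27a1 (0.22), Col19a1 (-0.23) and Col8a2 (-0.35) had smaller p than the rest of that list apart from Col11a2. Of 15 matrix receptors 9 were higher by their means, with the integrins Itga3 (0.39), Itgb3 (0.33) and Itgb6 (-0.26) and the collagen receptor kinase Ddr2 (-0.34) named by smallest p.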

How the data were processed

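Biotin-labelled cRNA of 3 WT and 3 EKO mice was hybridised to 1 Affymetrix 3' array each, per the labels' protocols. The deposited values are on a log2 scale. Per the submitters' processing notes, RMA was used, with Partek 6.6. RMA corrects background, normalizes quantiles between arrays and summarises each probe set, which narrows differences near the floor. The values carry no detection calls, so no filter was set, and no scan date was used. Sample titles gave the groups and the numbers of the replicates, named there as biological.

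Of 45101 probe sets 64 were controls, 34945 carried 1 gene symbol, 932 several and 9160 were unnamed. This left 18193 genes, each read from the brightest of its probe sets on average. Differences (EKO minus WT) were fitted with lmFit and eBayes of limma 3.58.1 under R 4.3.3. P-values were two-sided and adjusted over all genes by Benjamini-Hochberg. The procedure was tested on simulated data. Precision is limited by the number of arrays, 3 per group. Classes and lists are described by counts and medians with no set test. The members, lists and rules were chosen with earlier results of these data known. Values in every array are given for genes without overlap and for up to 3 genes of each class with the smallest unadjusted p, and genes outside the members are up to 4 (pathway lists) or 3 (markers) with the smallest unadjusted p per list. The array values of Col1a1, Col1a2, Col4a2, Col14a1, Col15a1 and Vcan and the differences of Col4a6, Kera and Epyc were added after their values were seen. Alternatives were a replicate block, the upper 50% of genes, repeated quantile normalization, centred medians, array weights, robust variances with a trend in intensity, 2 other probe set rules, each array left out and a threshold of 0.1. A scaling to abundant collagens was added after seeing the data.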

Additional observations from a re-analysis of the deposited data

How the results depend on the processing

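With all 6 arrays 1 gene and 0 of the 38 matrix genes passed the threshold, also at a threshold of 0.1. With 1 array left out, 1 to 42 genes and 0 to 1 of the 38 passed, the most without EKO replicate 2 (42 genes, with Col8a1 and, outside the 38, Ccn4 among them), and 2 genes passed without WT replicate 2. Over all 18193 genes same-numbered arrays did not deviate together (r of -0.07, -0.09 and -0.34 for numbers 1, 2 and 3), so the numbers were not taken as pairs. Among the 38 genes, however, replicate 2 was the lowest WT array for 26 and the lowest EKO array for 29. A replicate block gave 1 gene and 0 of the 38 past the threshold. It lowered some SEs, as for Loxl1 (0.347 to 0.122), and raised others, as for Col11a1 (0.238 to 0.262). Class medians moved by less than the spread between arrays under every alternative run. That measure says little about stability, since leaving out 1 array of 3 can hardly move a median further than this spread. The replicate block and the robust variances leave the differences as they are. With 1 array left out they ran from 0.23 to 0.75 for fibrillar, 0.31 to 0.46 for basement membrane and 0.03 to 0.46 for other collagens, -0.10 to 0.26 for glycoproteins, -0.69 to -0.28 for proteoglycans, -0.38 to 0.19 for crosslinking enzymes and -0.21 to 0.11 for PDGF receptors.

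Of the 38 genes 21 kept their sign under each of the alternatives with a test that gave them a value (14, or 13 for Col5a3, Col11a1, Col4a5 and Col15a1, which are not in the upper 50% of genes by mean), and 17 did not. Col14a1 is not in that upper part either. The cause was not tested. The replicate block, the upper 50% of genes and the robust variances leave a gene's difference unchanged, so these alternatives could not turn a sign. With array weights the sign turned for Col1a2 (0.02), Col17a1 (-0.04), Lamb3 (-0.03), Lox (0.03) and Loxl1 (0.08). With a mean over probe sets it turned for Col3a1 (0.06), Tnc (-0.06), Fbln2 (0.00), Loxl1 (0.07), Pdgfrb (-0.01) and the marker Trp63 (-0.07), and with the probe set of largest variance for Col1a2 (0.13), Col3a1 (0.32), Tnc (-0.24) and Trp63 (-0.33). With 1 array left out the ranges that crossed or reached 0 were -0.33 to 0.14 for Col1a2, -0.10 to 0.19 for Col17a1, -0.14 to 0.29 for Lama3, -0.18 to 0.33 for Lamb3, 0.00 to 0.26 for Col6a1, -0.21 to 0.46 for Col14a1, -0.14 to 0.22 for Col16a1, -0.09 to 0.24 for Postn, -0.05 to 0.28 for Tnc, -0.27 to 0.26 for Sparc, -0.11 to 0.32 for Fbln2, -0.09 to 0.42 for Bgn, -0.39 to 0.12 for Lox, -0.37 to 0.25 for Loxl1, -0.41 to 0.02 for Pdgfra, 0.00 to 0.28 for Pdgfrb, -0.12 to 0.47 for Pdgfd, 0.00 to 0.13 for Pdgfa and -0.60 to 0.13 for Pdgfrl. Other differences moved by over 1.5 times without reaching 0, from 0.14 to 0.68 for Col1a1, -0.38 to -0.07 for Col3a1, 0.31 to 0.77 for Col4a2, 0.33 to 0.76 for Col4a5, 0.04 to 0.12 for Col15a1, 0.03 to 0.33 for Col6a2, 0.23 to 0.72 for Col6a3, -0.36 to -0.12 for Fbln1, -0.76 to -0.28 for Lum and 0.04 to 0.76 for Vcan.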

Other observations

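Since type I and III collagen varied between the arrays of a group, each array was also shifted by the mean deviation of Col1a1, Col1a2 and Col3a1, a scaling chosen after seeing the data. The shifts were -0.08, -0.38 and 0.41 in WT and 0.43, -0.28 and -0.09 in EKO replicates 1, 2 and 3, and they moved the median difference of all genes from 0.00 to -0.03. No test is given on this scale, because the shift is shared by all genes and limma then gave each of them the same SE, 0.361.

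The shift moves all genes of an array alike, so it changes which genes overlap by its construction. On this scale 10 of the 38 matrix genes were without overlap, 8 higher (21.1%) and 2 lower (5.26%), against 0.879% and 0.5% of all genes. The 8 were Col11a1, Col4a1, Col8a1, Col12a1, Col4a2, Col4a5, Fn1 and Col1a1, the last of which is itself a reference gene of the scaling, and the 2 were Dcn and Lum. Of the 38, 6 gained and 4 lost their separation (Col5a3, Col7a1, Col18a1 and Fmod), where 0.638% of all genes gained it and 11.2% lost it. Dcn read 12.74, 12.30 and 12.64 in WT and 11.56, 11.82 and 11.49 in EKO replicates 1, 2 and 3. Lum read 11.63, 11.37 and 11.39 against 11.17, 10.94 and 10.81, and Col11a1 read 5.00, 5.80 and 5.33 against 6.85, 6.94 and 6.99. Genes that vary with type I and III collagen over the arrays are favoured by this scale, and the counts are a description only.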
